A study of Mus musculus with 14 samples.

Results

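Tibia RNA of ovariectomized mice given zoledronic acid was compared with tibia RNA of ovariectomized mice given phosphate-buffered saline. The comparison took the 6 libraries whose labels name these treatments, 3 OVX-ZA and 3 OVX-PBS, out of 14 in the series, where OVX stands for ovariectomy. All 6 came from wild-type female C57Bl/6 mice that had lost their ovaries, and treatment began 2 to 4 days after surgery and ran for 8 weeks. The other 8 libraries, used for the direct comparisons at the end, were OVX-HA (ovariectomy and hippuric acid, n = 3), OVX-PPA (ovariectomy and 3'(3'hydroxyphenyl) propionic acid, n = 2) and sham (sham surgery without removal of the ovaries, n = 3). The labels give no dose or route for zoledronic acid, no age and no treatment for the sham mice. They do not say whether a library stands for 1 animal, so p-values measure only the spread between these samples, which may be technical. Libraries held 11.9, 21.5 and 25.1 M estimated counts in OVX-ZA and 20.1, 34.2 and 35.2 M in OVX-PBS.

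Zoledronic acid is a nitrogen-containing bisphosphonate. It binds bone mineral, is taken up by osteoclasts as they resorb bone, and inhibits farnesyl diphosphate synthase of the mevalonate pathway, which deprives the cell of the lipid groups that anchor small GTPases to membranes. Osteoclasts form when macrophage precursors receive M-CSF and RANKL and fuse, and they dissolve bone with secreted acid, cathepsin K and tartrate-resistant acid phosphatase. Osteoblasts lay down type I collagen and osteocalcin, and their activity follows that of osteoclasts, a relation known as coupling. Loss of ovarian estrogen raises resorption, and bisphosphonates are given against it.

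The samples are titled tibia, and their RNA held transcripts of bone, marrow, fat and muscle. Osteoclast (Ctsk, Acp5), osteoblast (Col1a1, Bglap), osteocyte (Sost, Dmp1) and fat cell (Adipoq) markers were present in all 6 libraries. Muscle transcripts were present as well, such as Acta1 at 9400 to 13800 CPM in OVX-ZA and 9420 to 15600 CPM in OVX-PBS. CPM are counts scaled to the library total after TMM adjustment. In such bulk samples fewer cells of a type and less RNA per cell cannot be told apart. Transcripts of central nervous tissue were also present, and how they came into tibia samples is not known. Mobp, a myelin gene of oligodendrocytes, stood at 153, 378 and 418 CPM in OVX-ZA replicates 1, 2 and 3 and at 5.55, 285 and 305 CPM in OVX-PBS replicates 1, 2 and 3, so OVX-PBS replicate 1 nearly lacked them, as did OVX-HA replicate 2 (1.17 CPM). Glycam1, a gene of lymph node vessels, stood at 14.6, 38.6 and 0 CPM in OVX-ZA and at 0.915, 0.0305 and 0 CPM in OVX-PBS, so OVX-ZA replicates 1 and 2 carried lymph node transcripts, as did sham replicate 3 (32.5 CPM).

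Genes of the cells that resorb and form bone were among those with the smallest p, in opposite directions. Cyp2s1, a cytochrome P450 gene, and Cfap161, a cilia gene, were among them too, with log2 differences of 2.57 and -2.88. Ocstamp and Dcstamp, of osteoclast precursor fusion, were 5.29 and 4.5 times higher in OVX-ZA, and Ctsk, of matrix digestion, was 2.65 times higher. Bglap, which encodes osteocalcin, was 3.4 times lower, and the type I collagen gene Col1a1 was 2.91 times lower. In the edgeR quasi-likelihood test over 21761 genes, with the spread shared by all 14 libraries, 0 genes were called higher and 0 lower after Benjamini-Hochberg adjustment at 0.05 (0% each way), and the smallest adjusted p was 0.111, for Ocstamp. Unadjusted, 288 genes (1.32%) were higher and 443 (2.04%) lower at a p under 0.05. DESeq2's Wald test called 32 of 21745 genes, 23 higher (0.106%) and 9 lower (0.0414%). The number of edgeR calls changed with OVX-HA replicate 2, which is in neither group but enters the filter, the scaling and the shared spread. Without it, an alternative added after seeing the data, edgeR called 4 genes higher (Ocstamp, Dcstamp, Ctsk, Cyp2s1) and 8 lower (Bglap, Bglap2, Bglap3, Col1a1, Col1a2, Col11a2, Serpinf1, Cfap161). Where only a DESeq2 adjusted p is given below for OVX-ZA against OVX-PBS, edgeR with all 14 libraries did not call the gene. Values below are TMM-scaled CPM by library in the order of replicates 1, 2 and 3, and differences are log2 of OVX-ZA over OVX-PBS. The standard error (SE) was derived from the edgeR test, as the absolute log2 difference over the square root of its F statistic. The 95% intervals rest on this SE, which can be unstable for differences near 0.

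**Figure D1:**
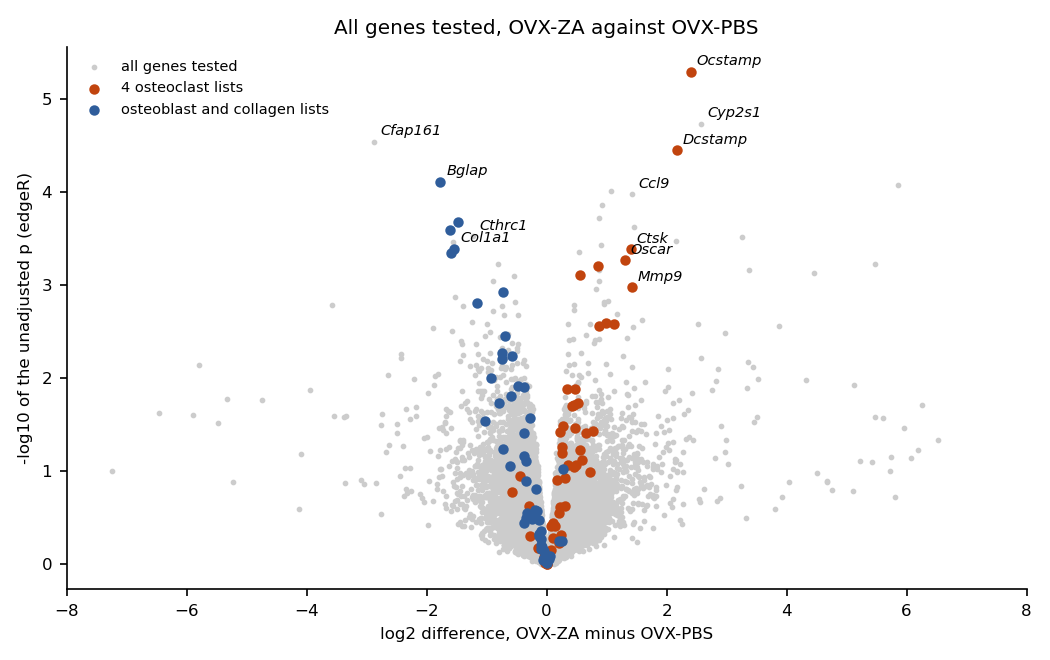
Each point is 1 of 21761 genes, with the log2 difference of OVX-ZA minus OVX-PBS on the x axis and minus log10 of the unadjusted edgeR p on the y axis. Red points (members of the 4 osteoclast lists) lie mostly right of 0 and blue points (osteoblast and collagen lists) mostly left of it, with Ocstamp at 2.40 and Bglap at -1.77.

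Promoters of 5 of the genes that DESeq2 called are shown because 3 of these genes were higher and 2 lower, and because their best-known regulators differ: NFATc1 and AP-1 drive osteoclast genes and RUNX2 drives osteoblast genes. Each is the 250 bases before the RefSeq gene start (GRCm38.p6), read 5′ to 3′ on the strand of the gene. Capitals mark, on either strand, GGAAA (the core bound by NFAT proteins, in 55.6% of 32851 promoter windows of this length), TGANTCA (AP-1, in 6.75%) and TGTGGT (the RUNX core, in 14%).
Ctsk, chr3:95498960-95499209, plus strand: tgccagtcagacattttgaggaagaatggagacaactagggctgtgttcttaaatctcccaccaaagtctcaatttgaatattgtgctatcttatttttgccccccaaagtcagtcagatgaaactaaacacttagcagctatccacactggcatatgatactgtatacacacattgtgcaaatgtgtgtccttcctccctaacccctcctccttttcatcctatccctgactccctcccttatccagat
Ccl9, chr11:83578637-83578886, minus strand: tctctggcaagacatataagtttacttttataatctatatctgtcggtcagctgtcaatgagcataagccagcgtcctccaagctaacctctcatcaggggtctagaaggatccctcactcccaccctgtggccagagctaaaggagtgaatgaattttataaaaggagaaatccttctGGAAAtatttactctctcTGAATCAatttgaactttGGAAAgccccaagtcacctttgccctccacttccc
Slc37a2, chr9:37255739-37255988, minus strand: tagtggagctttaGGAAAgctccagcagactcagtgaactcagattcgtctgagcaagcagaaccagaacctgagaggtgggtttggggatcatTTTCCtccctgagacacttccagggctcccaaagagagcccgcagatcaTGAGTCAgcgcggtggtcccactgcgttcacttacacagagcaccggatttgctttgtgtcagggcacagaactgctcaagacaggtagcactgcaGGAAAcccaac
Bglap, chr3:88384467-88384716, minus strand: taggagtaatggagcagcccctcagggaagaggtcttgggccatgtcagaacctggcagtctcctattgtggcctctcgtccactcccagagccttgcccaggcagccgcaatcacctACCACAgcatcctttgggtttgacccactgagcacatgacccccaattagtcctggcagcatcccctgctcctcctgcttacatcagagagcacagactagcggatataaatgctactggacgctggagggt
Col1a2, chr6:4505368-4505617, plus strand: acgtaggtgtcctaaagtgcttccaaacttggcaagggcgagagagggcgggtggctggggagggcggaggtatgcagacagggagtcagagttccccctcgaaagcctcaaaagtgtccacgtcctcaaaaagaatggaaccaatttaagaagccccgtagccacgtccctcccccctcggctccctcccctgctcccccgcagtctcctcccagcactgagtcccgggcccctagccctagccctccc
The Ccl9 window held 2 GGAAA and 1 TGANTCA, the Slc37a2 window 3 GGAAA and 1 TGANTCA, and the Bglap window 1 TGTGGT on the opposite strand. None of the 3 motifs was in the Ctsk or Col1a2 windows. These are matches of letters and say nothing of binding.

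Among the genes of osteoclast formation, Ocstamp and Dcstamp differed most. Both encode multi-pass membrane proteins needed for precursors to fuse into multinucleated osteoclasts. Ocstamp (chromosome 2, 165393760 to 165400405, minus strand, GRCm38, as are all gene positions here) had 19.9, 9.16 and 14.3 CPM in OVX-ZA, against 3.09, 2.71 and 2.4 CPM in OVX-PBS. Every OVX-ZA library lay well above every OVX-PBS library, with replicate 1 the highest. The log2 difference was 2.40 ± 0.311 (SE), a fold of 5.29, with an adjusted p of 0.111 in edgeR and 4.85e-10 in DESeq2. Dcstamp (chromosome 15, 39745930 to 39760938, plus strand) had 26, 12.3 and 13.9 CPM in OVX-ZA, against 4.06, 3.26 and 4.24 CPM in OVX-PBS. Its groups were apart as well, again with OVX-ZA replicate 1 the highest, with a log2 difference of 2.17 ± 0.342 and an adjusted p of 0.193 in edgeR and 1.8e-06 in DESeq2.

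The other fusion and attachment genes differed less, and for some the groups overlapped. Atp6v0d2, a subunit of the vacuolar proton pump that also takes part in fusion, had 74.4, 43.9 and 46.3 CPM in OVX-ZA and 25.7, 22.6 and 27.1 CPM in OVX-PBS, a log2 difference of 1.12 that neither test called. Itgav and Itgb3 encode the pair of integrin chains that osteoclasts use to attach to bone. Itgav was higher (log2 difference 0.55, DESeq2 adjusted p = 0.0162), while Itgb3 had 127, 101 and 89 CPM in OVX-ZA and 102, 83.9 and 129 CPM in OVX-PBS, which overlap. The log2 difference of Itgb3 was 0.01, with a 95% interval of -0.64 to 0.66. Of the 10 fusion genes listed, 7 lay above 0 and 3 below, 4 were higher and 1 lower without overlap between the groups, and the median log2 difference was 0.38, beside -0.04 over all genes tested. Across all genes, 916 (4.21%) were higher and 2167 (9.96%) lower without overlap. These shares stand beside every count without overlap given for a list in this comparison. The lists were chosen with earlier results of these data known.

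**Figure D2:**
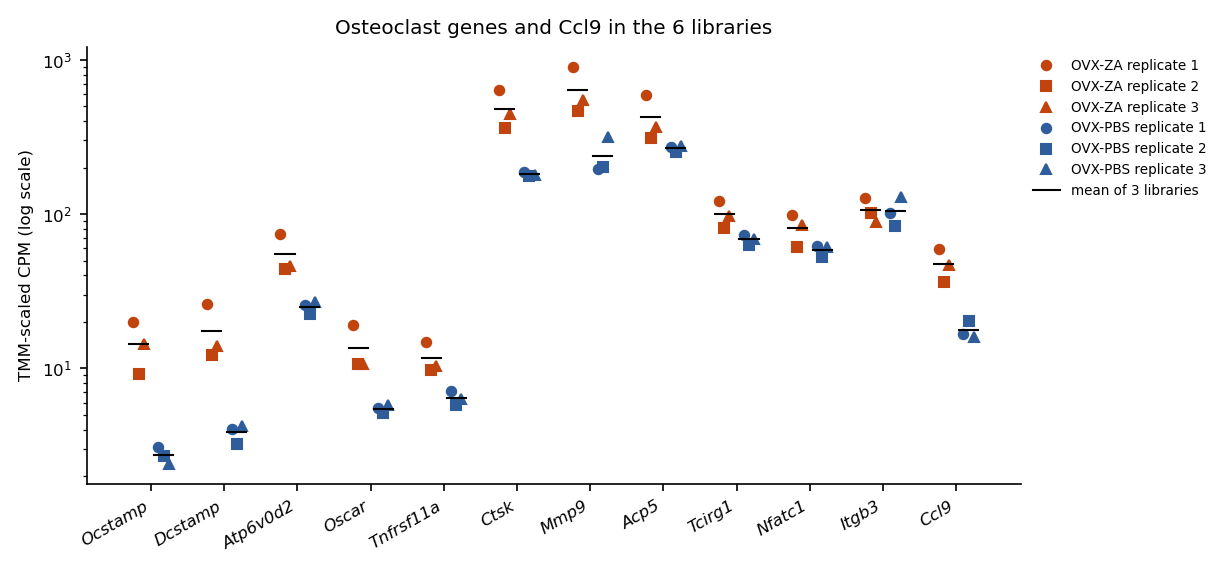
CPM on a log axis for 12 genes, with 3 OVX-ZA libraries (red, left) and 3 OVX-PBS libraries (blue, right) per gene and a line at each mean. All OVX-ZA points lie above all OVX-PBS points for Ocstamp, Dcstamp, Atp6v0d2, Oscar, Tnfrsf11a, Ctsk, Mmp9, Acp5, Tcirg1 and Ccl9, and the groups overlap for Nfatc1 and Itgb3.

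Of 11 genes of matrix digestion, 9 lay above 0 and 2 below, and DESeq2 called 2 higher, Ctsk and Mmp9. Ctsk (chromosome 3, 95499256 to 95509362, plus strand) encodes cathepsin K, the protease that cleaves type I collagen in the resorption pit. It had 633, 359 and 444 CPM in OVX-ZA, against 186, 176 and 180 CPM in OVX-PBS, where the 3 libraries were nearly equal. The log2 difference was 1.40 ± 0.292, with an adjusted p of 0.447 in edgeR and 0.0024 in DESeq2. Mmp9, a gelatinase of osteoclasts and also of neutrophils, had 899, 462 and 546 CPM in OVX-ZA and 197, 201 and 315 CPM in OVX-PBS (log2 difference 1.42, DESeq2 adjusted p = 0.0155). The neutrophil list, which holds Mmp9, had a median of -0.35, with 1 of 20 genes (Mmp9) higher and 1 lower without overlap. That median was 0.07 without OVX-PBS replicate 3 and -0.57 without the lymph node libraries, and the part of neutrophils in the Mmp9 value was not tested. Acp5, the tartrate-resistant acid phosphatase used as an osteoclast stain, had 594, 313 and 364 CPM in OVX-ZA and 272, 254 and 276 CPM in OVX-PBS. Its groups did not overlap, but neither test called the log2 difference of 0.66, which was 0.34 without OVX-ZA replicate 1. Its exons overlap those of a transcript on the opposite strand, and the labels do not say if strand entered the counting. In this list 5 genes were higher and 0 lower without overlap, with a median of 0.52.

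Acid secretion showed small differences across many genes. Of 18 genes, 16 lay above 0, 11 were higher without overlap and 1 was lower, with a median of 0.25. Slc9b2, a sodium and proton exchanger abundant in osteoclasts, had 29.4, 18.6 and 21 CPM in OVX-ZA and 13, 11.8 and 12.6 CPM in OVX-PBS (log2 difference 0.88). Tcirg1, the osteoclast subunit of the proton pump (0.55), and Clcn7, the chloride and proton exchanger beside it (0.34), differed less, and DESeq2 called none of these 3. Car2, the carbonic anhydrase that supplies protons, was the exception. It had 421, 490 and 491 CPM in OVX-ZA and 944, 578 and 553 CPM in OVX-PBS, a log2 difference of -0.57 that was not called. Red blood cell precursors also express Car2, and 16 of 18 erythroid genes were lower without overlap; their part in this value was not tested.

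Of 18 receptors and factors of the osteoclast programme, 14 lay above 0 and 4 below, the lowest being Fos at -0.45, and DESeq2 called 2 higher. Oscar, a costimulatory receptor that binds collagen, had 19.2, 10.7 and 10.7 CPM in OVX-ZA and 5.55, 5.12 and 5.76 CPM in OVX-PBS (log2 difference 1.30, DESeq2 adjusted p = 0.00708). Tnfrsf11a, the receptor RANK, had 14.8, 9.7 and 10.3 CPM in OVX-ZA and 7.15, 5.76 and 6.29 CPM in OVX-PBS (0.86, DESeq2 adjusted p = 0.00708). For both genes OVX-ZA replicate 1 was highest and the groups did not overlap. Prdm1, a repressor that silences inhibitors of osteoclast formation, differed by 0.99 and Nfatc1, the transcription factor that directs the programme, by 0.48, and neither was called. In this list 5 genes were higher and 0 lower without overlap, with a median of 0.29.

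The cytokines that act on these receptors differed among themselves. Tnfsf11, which encodes RANKL, had 2.56, 4.2 and 3.88 CPM in OVX-ZA and 2.12, 1.55 and 1.65 CPM in OVX-PBS, a log2 difference of 1.02 ± 0.364 that neither test called after adjustment. All 3 OVX-ZA libraries lay above the OVX-PBS libraries, here with replicate 1 the lowest. Tnfrsf11b, which encodes the RANKL decoy osteoprotegerin, had 7.75, 5.76 and 6.68 CPM in OVX-ZA and 7.03, 6.15 and 6.58 CPM in OVX-PBS. Its log2 difference was 0.03 with a 95% interval of -0.55 to 0.61. Csf1, which encodes M-CSF, differed by 0.36 and its receptor Csf1r by 0.45, without overlap between groups and without a call. All 9 genes of the RANKL and M-CSF list lay above 0, and 5 were higher without overlap.

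Counted together, the 4 osteoclast lists held 53 genes, of which 43 lay above 0 and 10 below. Of the 53, 23 (43.4%) were higher and 2 (3.77%) lower without overlap, beside 4.21% and 9.96% over all genes tested. DESeq2 called 7 higher and 0 lower, beside 0.106% and 0.0414% over all genes it tested. The 7 were Ocstamp, Dcstamp, Itgav, Ctsk, Mmp9, Oscar and Tnfrsf11a. OVX-ZA replicate 1, the shallowest library, had the highest value for 6 of these 7, all but Itgav. Without it the 4 list medians were still above 0, and that of the matrix enzymes was 0.31.

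The other 16 genes that DESeq2 called higher hold several known in osteoclasts. Ccl9 (chromosome 11, 83572919 to 83578636, minus strand), a chemokine that osteoclasts secrete in mice, had 59.4, 36.4 and 46.8 CPM in OVX-ZA and 16.8, 20.2 and 15.9 CPM in OVX-PBS. Its log2 difference was 1.43 ± 0.253, with an adjusted p of 0.286 in edgeR and 0.000131 in DESeq2. Slc37a2, a sugar phosphate transporter of osteoclast and macrophage lysosomes, had 109, 56.8 and 70.6 CPM in OVX-ZA and 28, 23.1 and 34.9 CPM in OVX-PBS (1.46). Jdp2, an AP-1 protein needed for osteoclast formation in mice, differed by 0.91, Scin, an actin-severing protein, by 1.02, and Gpr137b, a lysosomal membrane protein, by 0.87. The pseudogene Gpr137b-ps differed by the same 0.87, and how the counting divided reads between these similar sequences is not known.

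Cyp2s1, a cytochrome P450, differed by the largest factor among the genes called higher that reached 1 CPM in every one of the 6 libraries. It had 15.5, 9.65 and 13.3 CPM in OVX-ZA and 1.26, 2.1 and 2.99 CPM in OVX-PBS. The log2 difference was 2.57 ± 0.378, with an adjusted p of 0.193 in edgeR and 1.67e-07 in DESeq2, and a noncoding transcript overlaps its exons on the opposite strand. Slc18a1, a vesicular monoamine transporter, had 2.47, 2.86 and 1.86 CPM in OVX-ZA and 0.515, 0.457 and 0.613 CPM in OVX-PBS. Akr1c18, an enzyme that inactivates progesterone, had 2.14, 0.804 and 1.36 CPM in OVX-ZA and 0.0572, 0.152 and 0.16 CPM in OVX-PBS. Ifi202b, an interferon-inducible gene, had 1.32, 0.938 and 0.536 CPM in OVX-ZA and 0, 0.0305 and 0 CPM in OVX-PBS, so it was near 0 in the whole OVX-PBS group. The interferon list did not share this direction: 23 of its 24 genes lay below 0. Rsc1a1 (3.3, 1.25 and 0.66 CPM in OVX-ZA; 0, 0.0305 and 0.0533 CPM in OVX-PBS) shares exon sequence with Ddi2 on the same strand, so its value is uncertain. Further calls were Grk3, Kcnj15, Mst1r and the predicted gene Gm18180, with log2 differences of 0.54, 0.88, 0.96 and 1.08.

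Osteoblast genes stood on the other side, led by osteocalcin. Bglap, Bglap2 and Bglap3 lie within chromosome 3, 88368616 to 88384464, on the minus strand, and are nearly identical, so reads may have been divided between them. Bglap had 61.9, 51.1 and 56.9 CPM in OVX-ZA, against 202, 183 and 193 CPM in OVX-PBS. The replicates of each group were close to each other and the groups were far apart. The log2 difference was -1.77 ± 0.303, a level 3.4 times lower, with an adjusted p of 0.286 in edgeR and 0.000123 in DESeq2. Bglap2 had 36.6, 28.7 and 39.8 CPM in OVX-ZA and 119, 98.3 and 98 CPM in OVX-PBS (-1.59), and Bglap3 differed by -1.61.

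Both chains of type I collagen, the main protein of bone matrix, were lower. Col1a1 (chromosome 11, 94936224 to 94953042, plus strand) had 1230, 724 and 1180 CPM in OVX-ZA, against 3130, 2490 and 3510 CPM in OVX-PBS. The log2 difference was -1.54 ± 0.319, with an adjusted p of 0.447 in edgeR and 0.00302 in DESeq2. Col1a2 had 1240, 858 and 1210 CPM in OVX-ZA and 3150, 2520 and 3490 CPM in OVX-PBS (-1.47, DESeq2 adjusted p = 0.000666). OVX-ZA replicate 2 was lowest for both chains. Col11a2, Col5a2 and Serpinh1, which encode 2 minor fibrillar collagen chains and the collagen chaperone HSP47, differed by -1.16, -0.72 and -0.70, without overlap and without a DESeq2 call. Of 26 genes of collagen processing and minor collagens, 0 were higher and 10 lower without overlap, with a median of -0.22.

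Genes of 3 secreted proteins tied to bone formation were also called by DESeq2. Cthrc1, a collagen triple helix repeat protein that osteoclasts secrete as a coupling factor in mice and that matrix cells also make, had 2.23, 4.07 and 3.92 CPM in OVX-ZA and 8.52, 7.34 and 8.26 CPM in OVX-PBS (log2 difference -1.22, DESeq2 adjusted p = 0.00503). Cpz, a carboxypeptidase that binds Wnt proteins, had 1.73, 2.06 and 2.15 CPM in OVX-ZA and 6.12, 4.9 and 6.64 CPM in OVX-PBS (-1.56). Serpinf1, whose loss causes a human brittle bone disease, had 104, 75.9 and 97.7 CPM in OVX-ZA and 178, 150 and 159 CPM in OVX-PBS (-0.81). Of the 14 coupling factors listed, 0 were higher and 3 lower without overlap, with a median of -0.20.

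Not every osteoblast gene was lower. Runx2, the transcription factor that starts the lineage, had 29.4, 23.8 and 28.1 CPM in OVX-ZA and 30.9, 24.4 and 31.6 CPM in OVX-PBS, a log2 difference of -0.10 with a 95% interval of -0.61 to 0.42. Alpl, the alkaline phosphatase of mineralization, had 70.6, 39.6 and 54.8 CPM in OVX-ZA and 66.2, 50.5 and 53.3 CPM in OVX-PBS (interval -0.57 to 0.48). The matrix sialoproteins Ibsp (interval -0.54 to 0.94) and Spp1 (-0.56 to 0.59) overlapped between the groups as well. Sp7, which acts after Runx2, was lower without overlap, at 21.9, 17.4 and 20.6 CPM in OVX-ZA and 37.6, 26.6 and 27.3 CPM in OVX-PBS, and was not called. Of 26 osteoblast genes 1 was higher and 13 lower without overlap, with a median of -0.47. Together with the collagen processing genes these were 52 genes, of which 1 (1.92%) was higher and 23 (44.2%) lower without overlap. Over all genes tested these shares were 4.21% and 9.96%. DESeq2 called 5 of the 52 lower, beside 0.0414% over all genes it tested. With the nervous tissue level as a covariate the osteoblast median was -0.22, and without the libraries lacking nervous transcripts the collagen processing median was -0.08.

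**Figure D3:**
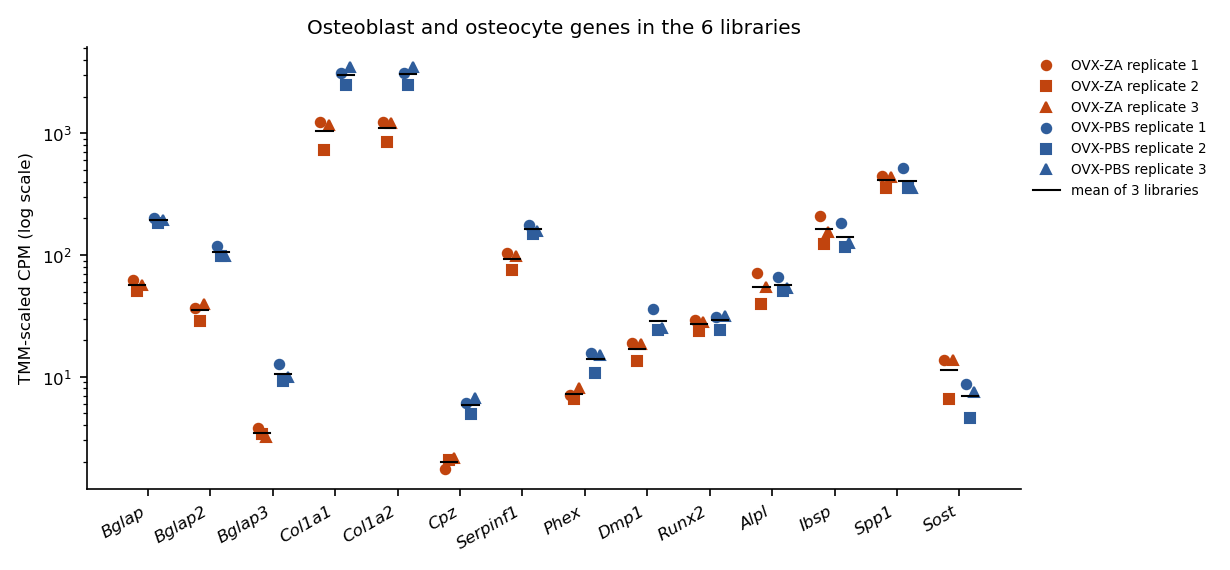
CPM on a log axis for 14 osteoblast and osteocyte genes, OVX-ZA (red, left) and OVX-PBS (blue, right), with a line at each mean. The groups are apart from Bglap to Dmp1 and overlap for Runx2, Alpl, Ibsp, Spp1 and Sost.

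Osteocytes, the cells buried in bone, gave a mixed picture. Phex, an endopeptidase of phosphate balance, had 7.09, 6.57 and 8.13 CPM in OVX-ZA and 15.7, 10.8 and 15.2 CPM in OVX-PBS (log2 difference -0.93), and Dmp1, a mineralization protein, differed by -0.74. Slc13a5, which carries citrate into bone cells, differed by -0.94. Sost, which encodes the Wnt inhibitor sclerostin, had 13.8, 6.52 and 13.6 CPM in OVX-ZA and 8.75, 4.6 and 7.52 CPM in OVX-PBS, with overlap and a log2 difference of 0.70. No gene of this list was called by edgeR or DESeq2; 0 were higher and 4 lower without overlap, with a median of -0.10.

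Cfap161 (chromosome 7, 83774101 to 83794880, minus strand), a gene of cilia and flagella with no role in bone named here, was lowest relative to OVX-PBS among the called genes. It had 0.247, 0.447 and 0.206 CPM in OVX-ZA, against 2.97, 1.77 and 2.13 CPM in OVX-PBS. The log2 difference was -2.88 ± 0.444, with an adjusted p of 0.193 in edgeR and 0.000131 in DESeq2.

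The pathway that zoledronic acid inhibits differed little in transcripts. Fdps, which encodes the target enzyme, had 21.7, 25.5 and 21.8 CPM in OVX-ZA and 22.2, 22.7 and 22.7 CPM in OVX-PBS, a log2 difference of 0.03 with a 95% interval of -0.24 to 0.30. Ggps1, which encodes the next synthase, and Hmgcs1, an enzyme early in the pathway, differed by 0.11 and 0.17. Of 26 mevalonate and cholesterol genes 20 lay above 0 and 6 below, with a median of 0.12. Only 1 (Hsd17b7) was higher and 0 lower without overlap, beside 4.21% and 9.96% of all genes tested. The 19 genes of prenylation and small GTPases had a median of -0.02. Neither test called a gene of these lists.

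The erythroid, cell cycle and B cell lists had medians below 0, with no member called by edgeR or DESeq2. Of 18 erythroid genes, 16 were lower without overlap (median -0.60), beside 9.96% of all genes tested. Hbb-bs, an adult globin, had 6480, 6500 and 6130 CPM in OVX-ZA and 12000, 9260 and 9210 CPM in OVX-PBS, and Klf1, the erythroid transcription factor, had 34.1, 35.1 and 35.7 CPM in OVX-ZA and 82.4, 50 and 48.9 CPM in OVX-PBS. Of 24 cell cycle genes, 23 were lower without overlap (median -0.55), such as Top2a with 112, 115 and 103 CPM in OVX-ZA and 200, 145 and 165 CPM in OVX-PBS. Among the 6 libraries the summed level of both lists was highest in OVX-PBS replicate 1, the one with few nervous transcripts. OVX-HA replicate 2, which also nearly lacked them, was higher still, with 61190 CPM for erythroid and 3678 CPM for cell cycle genes. With the nervous tissue level as a covariate the medians were -0.21 for erythroid and -0.24 for cell cycle genes.

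The B cell list had a median of -0.62, with 6 of 19 genes lower and 0 higher without overlap and none called. Its members went both ways, with 15 below 0 and 4 above, up to Cr2 at 1.47. The summed level overlapped between the groups, at 496.8, 699.7 and 355.4 CPM in OVX-ZA and 460.5, 546.1 and 715.5 CPM in OVX-PBS. The median was -0.26 without OVX-PBS replicate 3 and -1.35 without the 3 lymph node libraries. Of its members, Vpreb1, a surrogate light chain gene, stood at 1.9, 2.95 and 2.19 CPM in OVX-ZA and 4.69, 5.57 and 6.74 CPM in OVX-PBS, and Rag1, a recombinase gene, stood at 6.18, 8.36 and 5.57 CPM in OVX-ZA and 9.95, 13.1 and 30.8 CPM in OVX-PBS. The T and NK cell, plasma cell and lymph node lists had medians of 0.55, 0.39 and 0.94. Without the 3 libraries that carry lymph node transcripts, which leaves 1 OVX-ZA library, the medians were -0.48, -0.41 and -0.54. That setting cannot tell lymph node content apart from the loss of OVX-ZA replicates 1 and 2. The plasma cell median was 1.01 without OVX-PBS replicate 3.

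Of 23 macrophage genes, 4 were higher and 0 lower without overlap, none was called, and the median was -0.07 (0.18 without OVX-PBS replicate 3). Cd68, a lysosomal protein of macrophages and osteoclasts, had 62.9, 39.9 and 42.9 CPM in OVX-ZA and 18.7, 24.6 and 28.8 CPM in OVX-PBS. Fat cell genes overlapped between the groups in all 17 cases (median -0.27), with Adipoq at 107, 104 and 72.3 CPM in OVX-ZA and 121, 133 and 80.4 CPM in OVX-PBS. Immediate early genes (median -0.24; 8 of 21 lower without overlap) and heat shock genes (median -0.25; 4 of 14) were lower in part, with Jun at 67.2, 70.2 and 82.2 CPM in OVX-ZA and 154, 93.2 and 85.8 CPM in OVX-PBS. Such genes respond to handling of tissue, and its part was not tested. The median of the central nervous system list was 0.60, and its summed level was 2791, 5791 and 6256 CPM in OVX-ZA and 924.4, 4160 and 4906 CPM in OVX-PBS.

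**Figure D4:**
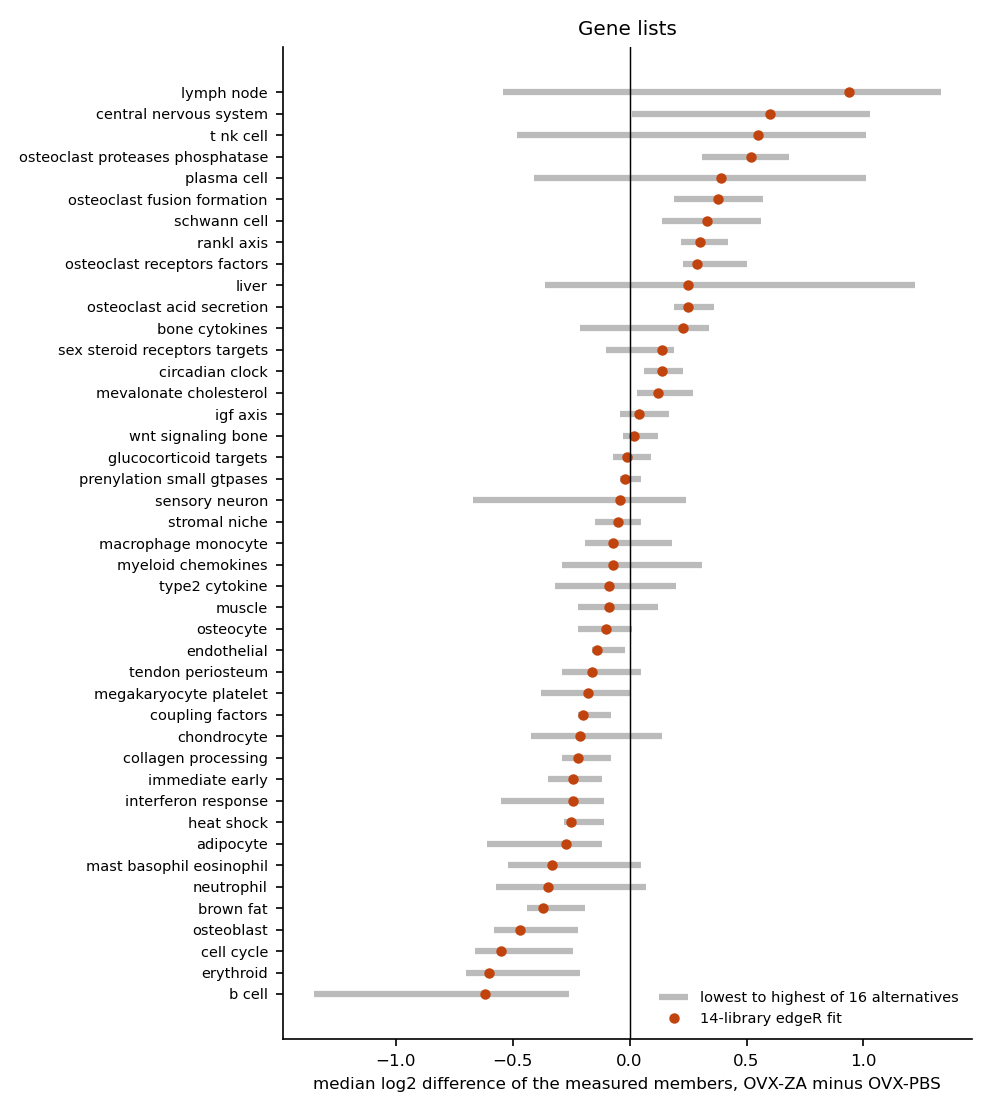
Median log2 difference of the measured members of 43 gene lists, OVX-ZA minus OVX-PBS (red points), with the lowest to the highest median over 16 alternative settings (grey bars). The 4 osteoclast lists stay right of 0 and the osteoblast and collagen processing lists left of it, while the lymph node, T and NK cell and plasma cell bars cross 0.

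The same genes were then compared directly between OVX-ZA and each of the other 3 groups. These comparisons share the 3 OVX-ZA libraries with the one above and are not independent of it. Against OVX-HA, edgeR called 1 gene higher (0.0046%), Ocstamp (adjusted p = 0.0411), and 0 lower (0%), with 297 higher (1.36%) and 523 lower (2.4%) at an unadjusted p under 0.05. DESeq2 called 21 higher (0.0966%) and 8 lower (0.0368%), and 675 (3.1%) were higher and 1109 (5.1%) lower without overlap. The edgeR call was lost without OVX-ZA replicate 1 (adjusted p = 0.168) or replicate 3 (0.145). Against OVX-PPA, edgeR called 0 in either direction, with 229 higher (1.05%) and 220 lower (1.01%) at an unadjusted p under 0.05. DESeq2 called 9 higher (0.0414%) and 5 lower (0.023%), and 1563 (7.18%) were higher and 2753 (12.7%) lower without overlap. OVX-PPA has only 2 libraries, which makes groups without overlap more frequent by chance. These shares therefore cannot be ranked against those of the other comparisons. Against sham, edgeR called 0 in either direction, with 284 higher (1.31%) and 323 lower (1.48%) at an unadjusted p under 0.05. DESeq2 called 12 higher (0.0552%) and 3 lower (0.0138%), and 754 (3.46%) were higher and 1126 (5.17%) lower without overlap.

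Ocstamp averaged 14.5 ± 5.36 CPM in OVX-ZA (SD, n = 3), against 2.27 ± 0.596 in OVX-HA, 2.91 ± 0.283 in OVX-PPA (n = 2), 2.73 ± 0.345 in OVX-PBS and 3.06 ± 0.91 in sham. Each OVX-ZA library lay above all 11 others. The log2 differences were 2.66 ± 0.313, 2.30 ± 0.362 and 2.23 ± 0.307 (SE) against OVX-HA, OVX-PPA and sham, and DESeq2 called all 3. Ctsk averaged 479 ± 140 CPM in OVX-ZA, against 166 ± 74.7 in OVX-HA, 178 ± 11.6 in OVX-PPA, 181 ± 4.95 in OVX-PBS and 181 ± 43.1 in sham, and DESeq2 called it in all 3 comparisons as well. Ccl9 averaged 47.5 ± 11.5 CPM in OVX-ZA, against 15.3 ± 2.34 in OVX-HA, 16 ± 4.48 in OVX-PPA, 17.6 ± 2.25 in OVX-PBS and 17.2 ± 5.87 in sham.

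For Bglap, Col1a1 and Cthrc1 the sham mean lay between those of OVX-ZA and OVX-PBS. Bglap averaged 56.7 ± 5.41 CPM in OVX-ZA, against 216 ± 126 in OVX-HA, 177 ± 25.8 in OVX-PPA, 193 ± 9.62 in OVX-PBS and 145 ± 16 in sham. Its log2 difference from sham was -1.36 ± 0.299 (DESeq2 adjusted p = 0.0347). Col1a1 averaged 1050 ± 280 CPM in OVX-ZA, against 3150 ± 1590 in OVX-HA, 2750 ± 65.9 in OVX-PPA, 3040 ± 514 in OVX-PBS and 2210 ± 262 in sham. Against sham it differed by -1.08 ± 0.316 and was not called (DESeq2 adjusted p = 0.366). Cthrc1 averaged 3.4 ± 1.02 CPM in OVX-ZA and 5.93 ± 1.03 CPM in sham, a difference of -0.78 that was not called. Cfap161 averaged 0.3 ± 0.129 CPM in OVX-ZA, against 2.46 ± 1.37 in OVX-HA, 1.85 ± 0.227 in OVX-PPA, 2.29 ± 0.619 in OVX-PBS and 2.03 ± 0.108 in sham, and DESeq2 called it against every one of these groups. OVX-HA replicate 2 stood apart from its group for Bglap and Col1a1, at 361 and 4970 CPM.

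**Figure D5:**
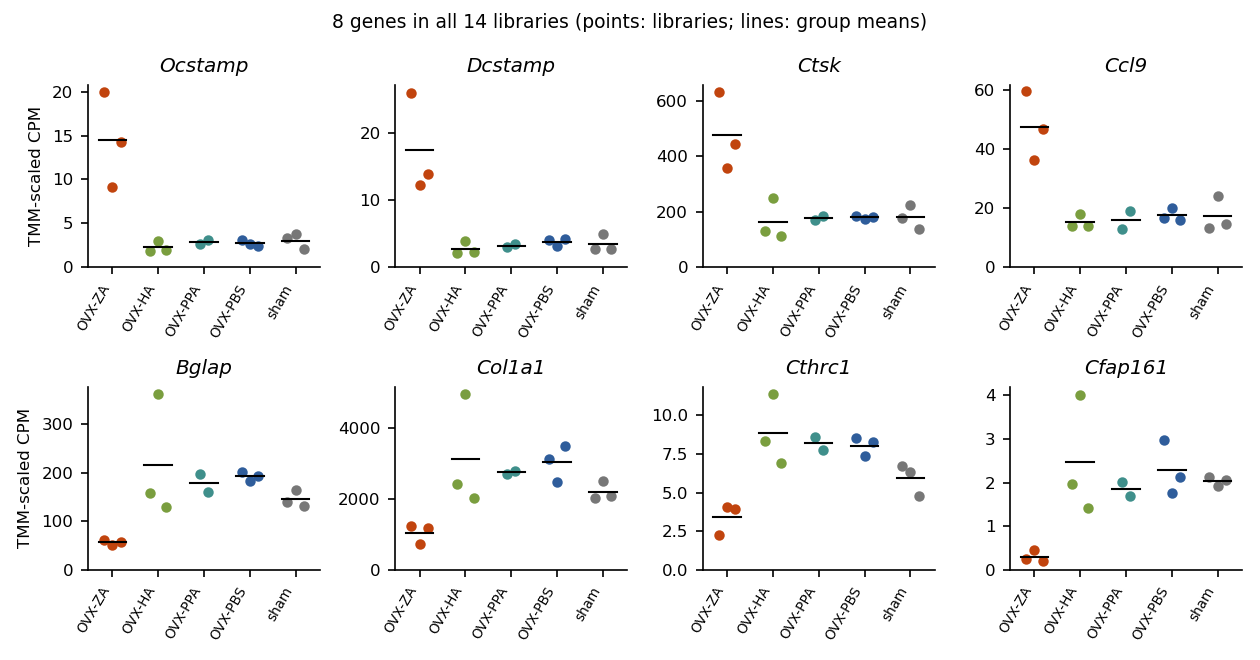
CPM on linear axes from 0 for 8 genes in all 14 libraries, with groups from left to right OVX-ZA, OVX-HA, OVX-PPA, OVX-PBS and sham and a line at each group mean. OVX-ZA points lie above all others for Ocstamp, Dcstamp, Ctsk and Ccl9 and below all others for Bglap, Col1a1, Cthrc1 and Cfap161.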

How the data were processed

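The series holds 14 tibia libraries, of which 6 enter the main comparison. They were made with a stranded poly(A) kit and read singly at 75 nt, per the labels' protocols. The tools named in the submitters' processing notes, without role or order, are STAR 2.7.8a, Bowtie2 2.2.5, CASAVA 1.8.1 and Partek, with the build mm10. For the counting step the tool, annotation and use of strand are not stated there. The authors deposited estimated counts per gene symbol, not normalized, of which 20.7% were not whole within 0.01; they were rounded. A second, log-scaled table was not used. Of 55291 symbols, 53292 (96.4%) were found in the GENCODE M21 annotation, which gave IDs and positions. Promoters came from RefSeq (GRCm38.p6), where 72 of 104 named genes had an entry.

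Genes were filtered with filterByExpr, scaled by TMM and fitted with edgeR 4.0.16 (R 4.3.3, quasi-likelihood, 14 libraries, a mean per group, 9 residual degrees of freedom, coefficient of variation 25%), two-sided, with Benjamini-Hochberg adjustment over 21761 genes. DESeq2 1.42.0 was an alternative on the same genes and design. Lists are described by counts and medians without a test, and "without overlap" means that every library of a group lay on 1 side of every library of the other. The members and the 43 lists were chosen with earlier results of these data known. Named were the genes nearest to passing in each direction, the leading members of lists, a set of bone genes and the DESeq2 calls, which were added after their values were seen; some genes that this rule selects are not reported here. Replicates of a group differed by more than sampling noise (chi-square per gene 12.1 to 67.8). The labels name no pairs. Deviations of same-numbered OVX-ZA and OVX-PBS libraries correlated by 0.63, 0.14 and 0.14 over genes above 5 CPM. Replicates 2 and 3 correlated more (0.48) across numbers. An alternative with a replicate block took the numbers as pairs even so. Alternatives left out single libraries or the ones with nervous or lymph node transcripts, added the nervous tissue level as a covariate, or changed the filter, the scaling or the samples in the fit. The scripts were tested on simulated data.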

Additional observations from a re-analysis of the deposited data

How the results depend on the processing

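With 3 libraries a group and 11.9 M counts in the shallowest, the edgeR counts changed with the settings. Against OVX-PBS (0 higher and 0 lower), 23 were higher and 9 lower in DESeq2, 3 higher with no filter on low counts, 1 lower (Bglap) with only the 2 groups, 2 and 4 without the libraries lacking nervous transcripts, 3 and 3 with that level as a covariate, and 4 and 8 without OVX-HA replicate 2. Leaving out each replicate gave 0 to 1 higher (Ocstamp without OVX-ZA replicate 2) and 0 lower; counting OVX-HA replicate 2 among them, 0 to 4 and 0 to 8. Against OVX-HA (1 and 0), the counts were 21 and 8 in DESeq2, 6 and 2 with no filter, 3 and 1 without the libraries lacking nervous transcripts, 7 and 3 with the covariate, 0 to 3 and 0 to 1 when 1 library was left out (here and below, an OVX-ZA library or OVX-HA replicate 2; the other libraries of OVX-HA, OVX-PPA and sham were not left out in turn), and 0 higher with only the 2 groups or without the lymph node libraries. Against OVX-PPA (0 and 0) they were 9 and 5 in DESeq2, 2 and 3 with the covariate, 2 lower without the libraries lacking nervous transcripts, and 0 and 0 to 2 when 1 library was left out. Against sham (0 and 0) they were 12 and 3 in DESeq2, 2 higher with no filter, 3 and 2 with the covariate, 2 lower without the libraries lacking nervous transcripts, and 0 to 2 each way when 1 library was left out. The causes were not tested. A replicate block takes equal replicate numbers as pairs, though the labels name no pairs. With it, edgeR again called 0 genes against OVX-PBS (smallest adjusted p 0.359, 693 genes at an unadjusted p under 0.05). DESeq2 was not fitted with the block. Against OVX-HA, where same-numbered libraries correlated by -0.55, -0.23 and 0.56, the block gave 0 in place of 1.

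Of 104 named genes over 16 alternatives, 33 passed in at least 1 and 15 turned sign in at least 1. Many of the 33 passed only in DESeq2, among them Itgav, Mmp9, Oscar, Tnfrsf11a, Ccl9, Slc37a2, Cthrc1 and Cpz. DESeq2 was fitted on all 14 libraries only, so how its calls depend on single libraries was not tested. Col11a2 passed only without OVX-HA replicate 2. Ocstamp passed in 6 alternatives, and Bglap and Cyp2s1 in 5 each. The 15 genes that turned sign were near 0 or did so without the lymph node libraries. Without those libraries Itgb3 was -0.24, Fdps -0.05, Idi1 -0.01, Il4ra -0.22, Glycam1 -5.97 and Cd8b1 -0.46. Without the libraries lacking nervous transcripts Alpl was 0.10, Pparg 0.03 and Plin1 0.09, and with the covariate Alpl was 0.14 and Runx2 0.06. Alpl was 0.01 in DESeq2, with its size factors, with no filter, with 2 groups and without OVX-HA replicate 2, and Itgb3 was -0.01 with the replicate block. Leaving out 1 replicate gave -0.15 to 0.27 for Itgb3, -0.08 to 0.13 for Tnfrsf11b, -0.21 to 0.06 for Runx2, -0.26 to 0.15 for Alpl, -0.03 to 0.43 for Ibsp, -0.08 to 0.22 for Spp1, -0.05 to 0.11 for Fdps, -0.07 to 0.20 for Idi1, -0.05 to 0.36 for Sqle, -0.20 to 0.01 for Pparg, -0.29 to 0.07 for Plin1 and -0.38 to 0.12 for Hcar2. Ocstamp ranged from 2.11 to 2.65 and Bglap from -1.84 to -1.56 over all alternatives.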
